A study of Mus musculus with 28 samples.

Results

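Cytochrome P450 genes of families 1 to 3 encode the enzymes that oxidise most drugs, dietary chemicals and many steroids in the liver. The genes described here are those whose symbols read Cyp followed by family 1, 2 or 3, a subfamily letter and a number, other than Cyp1a2, Cyp2e1 and Cyp2c70, which were left out by the same rule. The rule found 55 of the 21935 genes in the counts table. In 33 of the 55 the mean level over all 28 mice was at least 1 CPM (counts scaled to a common library size), and these 33 were compared between treatments. The rule used symbols and level and no difference between treatments, but it was chosen with earlier results of these data known.

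The data were liver poly-A RNA-seq counts from male B6.V-Lep ob/JRj mice, which lack leptin and become obese. The mice arrived at 5 weeks of age. They ate the Amylin liver NASH (AMLN) diet, high in fructose, fat and cholesterol, for 14 weeks before treatment and during the 2 treatment weeks. Treatment was given by mouth once daily and was carboxymethylcellulose vehicle in 10 mice, 30 mg/kg of obeticholic acid (OCA) in 9 and 30 mg/kg of INT-787 in 9. OCA, an ethyl derivative of the bile acid chenodeoxycholic acid, and INT-787 are agonists of the farnesoid X receptor (FXR), the nuclear receptor for bile acids. All 3 groups carried the ob mutation and ate the AMLN diet, so no lean or chow-fed mouse was compared, and all were male. The question addressed was how the liver's response differed between both FXR agonists and vehicle, and between the agonists at the same dose.

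P450s of these families are haem enzymes of the endoplasmic reticulum that receive electrons from P450 reductase. Family 1 genes are classical targets of the aryl hydrocarbon receptor (AhR), and many genes of subfamilies 2b, 2c and 3a are targets of the constitutive androstane receptor (CAR) and the pregnane X receptor (PXR), which also sense bile acids and steroids. The mouse genes lie in clusters of near-identical neighbours, several differ in level between male and female liver, and others are restricted to the periportal or the pericentral part of the liver lobule.

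Total counts ran from 1009593 to 22421506 per mouse with a median of 14864947, and the shallowest library by far was vehicle replicate 6. In vehicle replicate 5, genes that overlap an expressed gene on the opposite strand held a median of 0.762 of the counts that the partner's shared bases would give (83 gene pairs), against 0 to 0.0223 in the other 27 mice. OCA replicate 3 was the highest of its group for 22 of the 33 P450 genes and OCA replicate 8 the lowest for 21. Counts without these 4 mice are given beside the results they touch. The albumin gene averaged 74111 CPM in vehicle and none of the 6 hepatocyte markers measured was at 0.

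INT-787 raised P450 genes in most subfamilies, and OCA raised a smaller number of them. With INT-787, 14 of the 33 genes were higher than in vehicle and 2 were lower (48.5% called, against 19.6% of all 12580 genes tested). The shares over all genes, here and below, were not matched for expression level. OCA raised 6 and lowered 0 (18.2%, against 6.6% of all genes), while 13 of the 33 had an unadjusted p under 0.05, as did 2332 of all 12580 genes. Unadjusted p-values under 0.05 were found for 21 of the 33 with INT-787 against vehicle (4065 of all genes) and for 15 between INT-787 and OCA (2378 of all genes). Between INT-787 and OCA, 5 genes were higher and 1 was lower with INT-787 (18.2%, against 5.38%). A gene is called here when the edgeR quasi-likelihood test, fitted to all genes and mice together, gave a Benjamini-Hochberg adjusted p of at most 0.05. By direction, 10.2% of all genes tested were called higher and 9.48% lower with INT-787, and 4.15% and 2.45% with OCA. Against OCA, 2.19% of all genes were higher and 3.19% lower with INT-787. These shares also stand beside the counts of listed genes below. With upper-quartile in place of TMM scaling, 37.5% rather than 51.7% of all genes called with INT-787 were higher, and 52.3% rather than 62.9% with OCA, while 12 P450 genes were higher and 3 lower with INT-787. The comparisons with vehicle share the same 10 vehicle mice, and OCA and INT-787 are the 1 pair of compounds compared, at the same dose and time.

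The median log2 fold change of the 33 genes was 0.44 for INT-787 against vehicle, beside -0.0010 for all genes tested. It was 0.21 for OCA, beside 0.018, and 0.29 for INT-787 against OCA, beside -0.0065. Fold changes above 0 were found in 27, 24 and 25 of the 33 genes in the same order of comparisons. The counts called against vehicle were 20 for INT-787 and 7 for OCA without the 4 mice that stood apart. The count called between INT-787 and OCA rose to 13 without those mice, and it was also 13 without OCA replicate 3 alone. That mouse was singled out for its high levels of these same genes, so leaving it out favours such calls. Since this is bulk tissue, a change in the share of hepatocytes or other cells and a change in an RNA per cell cannot be told apart.

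**Figure D1:**
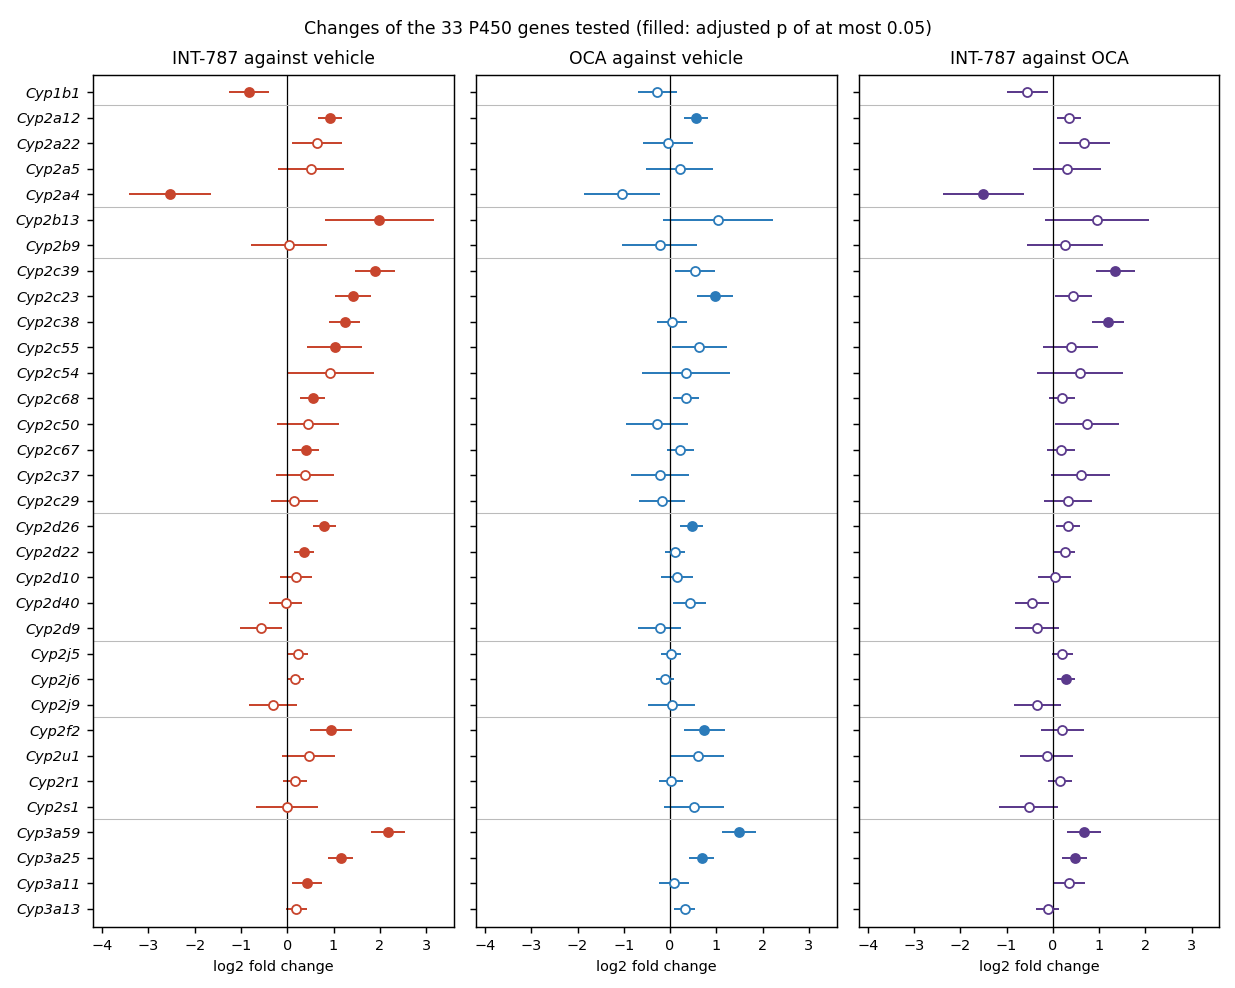
Log2 fold change (x axis) of the 33 P450 genes (y axis, grouped by subfamily) in the 3 comparisons, with 95% confidence intervals, not adjusted for the number of genes, as lines and filled points where the edgeR adjusted p was at most 0.05. Filled points number 16, 6 and 6 from left to right, and Cyp2a4 and Cyp3a59 lie at the opposite ends of the left panel.

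The lowest, median and highest summed level of the 55 genes was 8141, 10313 and 14976 CPM in the vehicle mice, 8845, 11721 and 18554 in the OCA mice and 12230.4, 15067 and 18142 in the INT-787 mice. The INT-787 and vehicle mice overlapped in this sum. It came to a median of 1.07% of all counts in vehicle, 1.17% with OCA and 1.52% with INT-787. Cyp3a11 was the largest single part of the sum and averaged 5021 of 10596 CPM in vehicle, 5312 of 12304 with OCA and 6798 of 15358 with INT-787. Expressed per kilobase of transcript, Cyp3a11 averaged 2142 CPM per kb in vehicle, followed by Cyp2d26 at 613, Cyp2d10 at 339.6, Cyp2a12 at 335 and Cyp2f2 at 244. With INT-787 the order of the leading 5 became Cyp3a11 (2900.2), Cyp2d26 (1068), Cyp2a12 (632), Cyp2f2 (469.6) and Cyp2d10 (388), all in CPM per kb.

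Subfamily 3a holds the most abundant drug-oxidising P450 of mouse liver, Cyp3a11, and 3 of its 4 genes tested rose with INT-787 and 2 with OCA. In what follows, levels of a group are given as its lowest, median and highest CPM. Cyp3a59 had the largest rise of the 33 genes with either drug. Its level was 17.7, 27.9 and 36.4 CPM in vehicle, 29.8, 77.8 and 104 with OCA and 89.6, 117 and 168 with INT-787. Every INT-787 mouse and 8 of 9 OCA mice lay above the highest vehicle mouse. The log2 fold change was 2.17 ± 0.17 (SE, edgeR adjusted p = 3.34e-11) for INT-787 and 1.50 ± 0.17 (SE, edgeR adjusted p = 2.16e-07) for OCA, which are 4.50-fold and 2.82-fold. INT-787 exceeded OCA by 0.67 ± 0.17 (SE, edgeR adjusted p = 0.014) on the log2 scale.

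Cyp3a25, its neighbour on chromosome 5, had levels of 225, 286 and 417 CPM in vehicle, 259.6, 502 and 573 with OCA and 526, 653 and 812 with INT-787. All INT-787 mice were above all vehicle mice, and 8 of 9 OCA mice were too. The log2 changes were 1.16 ± 0.12 (SE, edgeR adjusted p = 1.32e-08) with INT-787, 0.68 ± 0.12 (SE, edgeR adjusted p = 0.000227) with OCA and 0.47 ± 0.12 (SE, edgeR adjusted p = 0.0187) between INT-787 and OCA. For both genes the OCA mouse that stayed within the vehicle range was OCA replicate 8.

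Cyp3a25 (ENSMUSG00000029630, chr5:145977194-146009618, minus strand) and Cyp3a59 (ENSMUSG00000061292, chr5:146079257-146113287, plus strand) are positions in GRCm38. Their coding sequences were 97.5% identical, and 88.8% and 89.2% of 75-base stretches of the respective transcripts occurred in no other annotated gene. The 250 bases before the RefSeq start of each gene aligned with 94.8% identity, gaps counted as differences. They are shown because these neighbours rose together, with the hexamer AGGTCA, a nuclear receptor recognition sequence, in capitals on either strand (TGACCT on the other). Cyp3a25 is at chr5:146009619-146009868 on the minus strand and Cyp3a59 at chr5:146079008-146079257 on the plus strand.
Cyp3a25: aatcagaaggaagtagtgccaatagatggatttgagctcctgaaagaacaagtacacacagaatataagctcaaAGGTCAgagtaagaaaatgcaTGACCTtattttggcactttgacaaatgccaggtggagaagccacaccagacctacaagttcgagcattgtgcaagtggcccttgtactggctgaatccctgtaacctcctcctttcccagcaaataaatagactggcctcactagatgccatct
Cyp3a59: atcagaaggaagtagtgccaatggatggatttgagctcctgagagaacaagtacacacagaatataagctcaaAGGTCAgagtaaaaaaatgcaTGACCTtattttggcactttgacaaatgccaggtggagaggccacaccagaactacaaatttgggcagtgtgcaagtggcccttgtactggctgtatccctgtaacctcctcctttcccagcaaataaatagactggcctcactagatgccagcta
Each held the hexamer at 2 positions, in opposite orientations. At least 1 such hexamer occurred in 13.8% of all 27025 mouse promoter windows of that length and at least 2 in 1.32%. Of the 29 P450 genes with a RefSeq window, 8 held it, among them Cyp3a11 and Cyp2f2, and of the 12 windows of genes higher with INT-787, 5 did. Near-identical windows, such as those of Cyp3a25 and Cyp3a59, were counted separately in these numbers. The inverted repeat AGGTCANTGACCT and the direct repeat AGGTCANAGGTCA, each of which contains the hexamer, were in 0.0074% and 0.037% of windows and in 0 of the 29. Repeats this rare would be missing from almost any 29 windows, so their absence here says nothing about these genes. The letters TATAAA were found in 14 of the 29 windows, against 12.97% of all windows.

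Cyp3a11, the main CYP3A of mouse liver and a textbook PXR target, moved less. Its level was 3518, 4845 and 8469 CPM in vehicle, 3846, 4899 and 8779 with OCA and 5093, 6989 and 8089 with INT-787. Each of the 9 INT-787 mice was above the vehicle median but none was above the highest vehicle mouse, vehicle replicate 5. The log2 change was 0.44 ± 0.15 (SE, edgeR adjusted p = 0.0353) with INT-787, and without single mice its adjusted p ran from 0.00403 to 0.0686 and exceeded 0.05 in 10 of 28 fits. With upper-quartile scaling it was 0.0707. With OCA the change was 0.08 ± 0.15 (SE, edgeR adjusted p = 0.854), and the 95% interval of INT-787 against OCA was 0.04 to 0.67. That difference was 0.48 with an edgeR adjusted p of 0.0329 without OCA replicate 3, and 0.44 with 0.0267 without the 4 mice that stood apart. Cyp3a13, the 3a gene best known from the intestine, was not called, at 0.20 ± 0.10 (SE, edgeR adjusted p = 0.185) with INT-787 and 0.31 ± 0.10 (SE, edgeR adjusted p = 0.066) with OCA. The PXR gene itself, Nr1i2, averaged 55.6, 61.5 and 82.4 CPM in the vehicle, OCA and INT-787 mice. Its log2 change was 0.58 ± 0.15 (SE, edgeR adjusted p = 0.00711) with INT-787 and 0.15 ± 0.15 (SE, edgeR adjusted p = 0.669) with OCA.

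**Figure D2:**
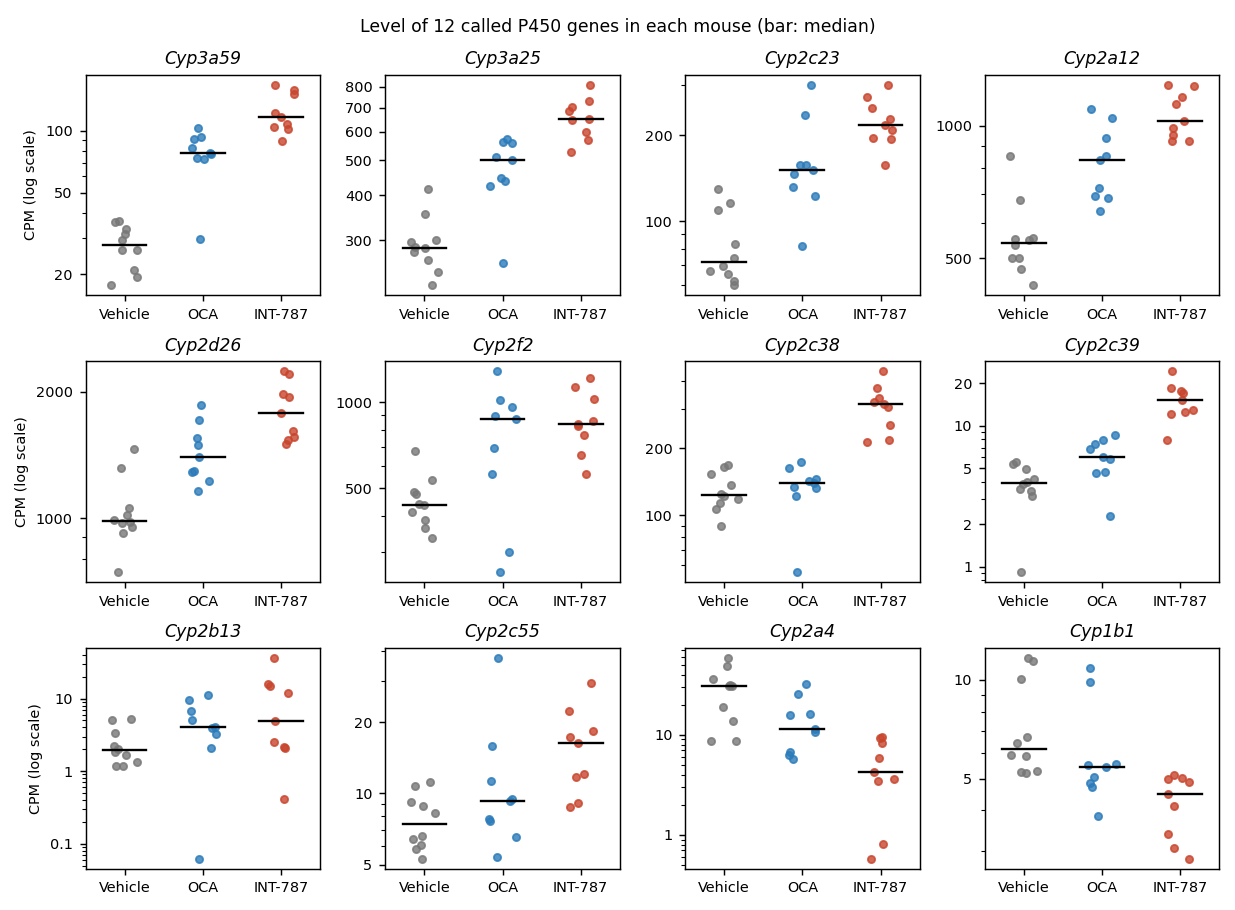
CPM (y axis, log scale, each panel with its own range) of 12 called P450 genes in each of 10 vehicle, 9 OCA and 9 INT-787 mice, with 1 point per mouse and the group median as a bar. The INT-787 points of Cyp3a59 run from 89.6 to 168, above the highest vehicle point of 36.4, and those of Cyp2a4 run from 0.578 to 9.54 against 8.62 to 58.3 in vehicle.

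Subfamily 2c, which includes the arachidonic and linoleic acid epoxygenases of the liver, gave 6 of 10 genes higher with INT-787 and 1 with OCA. Cyp2c38 and Cyp2c39 were the genes that differed most between INT-787 and OCA among those higher with INT-787. Cyp2c38 was at 89.2, 123.3 and 168 CPM in vehicle, 55.8, 139.8 and 174 with OCA and 214, 315 and 441 with INT-787. The INT-787 mice overlapped with neither other group. The log2 change was 1.24 ± 0.15 (SE, edgeR adjusted p = 3.38e-07) with INT-787, 0.04 ± 0.15 (SE, edgeR adjusted p = 0.94) with OCA and 1.20 ± 0.16 (SE, edgeR adjusted p = 9.69e-06) between INT-787 and OCA. The 95% confidence interval, not adjusted for the number of genes, for OCA against vehicle was -0.27 to 0.35.

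Cyp2c39, known as a retinoic acid hydroxylase, was much lower in level, at 0.919, 3.93 and 5.56 CPM in vehicle, 2.30, 5.96 and 8.64 with OCA and 7.97, 15.3 and 24.3 with INT-787. The lowest vehicle value is a single count in the shallow vehicle replicate 6. All INT-787 mice were above all vehicle mice and above the OCA median. The change was 1.89 ± 0.20 (SE, edgeR adjusted p = 1.64e-08) with INT-787 and 1.35 ± 0.20 (SE, edgeR adjusted p = 4.60e-05) against OCA, and 0.54 ± 0.20 (SE, edgeR adjusted p = 0.114) with OCA against vehicle. Without OCA replicate 8 the OCA change was 0.65 with an edgeR adjusted p of 0.0224. Without the 4 mice that stood apart it was 0.67 with 0.0360.

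Cyp2c38 (ENSMUSG00000032808, chr19:39389556-39463075, minus strand) and Cyp2c39 (ENSMUSG00000025003, chr19:39510862-39568529, plus strand) stand head to head in GRCm38. Their coding sequences were 94.2% identical, and 98.1% and 97.02% of 75-base stretches of their transcripts were unique to them. The 250 bases before their RefSeq starts were shifted against each other, with 29 bases of each window unpaired in the alignment, and were 89.6% identical over the 221 paired bases (95.6% over 249 in the 3a pair). They are printed for comparison, Cyp2c38 from chr19:39463076-39463325 (minus strand) and Cyp2c39 from chr19:39510572-39510821 (plus strand), with capitals for bases that differ from the other gene or have no counterpart in it.
Cyp2c38: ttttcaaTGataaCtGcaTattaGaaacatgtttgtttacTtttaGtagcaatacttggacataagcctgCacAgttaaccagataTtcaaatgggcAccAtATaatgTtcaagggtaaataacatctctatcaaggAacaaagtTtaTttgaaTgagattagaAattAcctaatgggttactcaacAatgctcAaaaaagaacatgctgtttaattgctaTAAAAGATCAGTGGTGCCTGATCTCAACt
Cyp2c39: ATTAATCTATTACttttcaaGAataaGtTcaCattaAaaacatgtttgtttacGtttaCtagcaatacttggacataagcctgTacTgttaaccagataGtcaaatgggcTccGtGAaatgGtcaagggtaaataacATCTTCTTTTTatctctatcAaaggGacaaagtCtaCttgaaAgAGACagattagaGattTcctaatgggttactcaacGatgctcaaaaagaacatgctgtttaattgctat
Neither window held AGGTCA on either strand.

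Cyp2c23, an arachidonic acid epoxygenase outside the main 2c cluster, was the 2c gene called with both drugs. Its level was 59.8, 71.9 and 130.0 CPM in vehicle, 81.6, 151 and 301 with OCA and 157, 217 and 299 with INT-787. No INT-787 mouse fell into the vehicle range, and 7 of 9 OCA mice were above it. The change was 1.42 ± 0.18 (SE, edgeR adjusted p = 6.77e-07) with INT-787 and 0.97 ± 0.18 (SE, edgeR adjusted p = 0.000473) with OCA. INT-787 was not called against OCA, with a difference of 0.45 ± 0.18 (SE, edgeR adjusted p = 0.167) and a 95% interval of 0.07 to 0.82. It was called without OCA replicate 3, at 0.60 with an edgeR adjusted p of 0.0271, and without the 4 mice that stood apart, at 0.62 with 0.0480.

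Cyp2c55, an arachidonic acid hydroxylase and CAR and PXR target, was at 5.30, 7.43 and 11.2 CPM in vehicle, 5.37, 9.32 and 37.3 with OCA and 8.80, 16.3 and 29.4 with INT-787. Its change was 1.02 ± 0.28 (SE, edgeR adjusted p = 0.00974) with INT-787 and 0.64 ± 0.28 (SE, edgeR adjusted p = 0.213) with OCA, where OCA replicate 8 was the highest mouse. Without that mouse the OCA change of Cyp2c55 was 0.21 (edgeR adjusted p = 0.655), and INT-787 exceeded OCA by 0.81 (edgeR adjusted p = 0.0311). Without the 4 mice that stood apart, Cyp2c55 was called higher with INT-787 than with OCA, at 0.82 with an edgeR adjusted p of 0.0464. Cyp2c67 rose by 0.40 ± 0.13 (SE, edgeR adjusted p = 0.0318) with INT-787, from 106, 122.7 and 153 CPM in vehicle to 132, 165 and 194, with 68.8, 139.7 and 242 under OCA. Cyp2c68 rose by 0.55 ± 0.13 (SE, edgeR adjusted p = 0.00204), from 87.4, 113 and 149 CPM in vehicle to 118, 166 and 233, with 106, 143 and 189 under OCA. The Cyp2c67 call with INT-787 was lost in 5 of the 28 fits that leave out 1 mouse (edgeR adjusted p up to 0.0692). It was also lost with upper-quartile scaling (0.0596) and with sets of sample numbers as a factor (0.0555). The sets group close sample numbers, and the labels do not say what these numbers mean. Cyp2c67 and Cyp2c68 were not called with OCA (edgeR adjusted p = 0.397 and 0.104). Their values are less certain than others, since 63.99% and 71.5% of 75-base stretches were unique and 24.7% and 23.2% were shared with Cyp2c40.

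The most abundant 2c gene, Cyp2c29, was not called in any comparison. It was at 219.8, 267 and 359.8 CPM in vehicle, 69.2, 259.6 and 407 with OCA and 129.9, 280.0 and 605 with INT-787. The INT-787 change was 0.15 ± 0.24 (SE, edgeR adjusted p = 0.712) with an interval of -0.33 to 0.63. The epoxygenase genes Cyp2c37, Cyp2c50 and Cyp2c54 were not called either, with log2 changes of 0.38, 0.45 and 0.93 for INT-787 against vehicle. Against OCA the changes were 0.60, 0.73 and 0.59 (edgeR adjusted p = 0.274, 0.211 and 0.522). Of their 75-base stretches 86.2%, 82.2% and 85.9% were unique. These 3 genes spread widely within the OCA group. Cyp2c50 ran from 8.31 CPM in OCA replicate 8 to 286 in OCA replicate 3, with a median of 75.5. Without the 4 mice that stood apart these 3 genes were called higher with INT-787 against vehicle, at 0.60, 0.59 and 1.05, and against OCA, at 0.72, 1.01 and 1.32. Their edgeR adjusted p-values then ran from 0.00197 to 0.0326. Without OCA replicate 3 alone, INT-787 exceeded OCA by 1.18 for Cyp2c50 and 1.47 for Cyp2c54 (edgeR adjusted p = 0.00874 and 0.00972). Cyp2c37 was called against OCA in none of the fits that leave out 1 mouse.

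**Figure D3:**
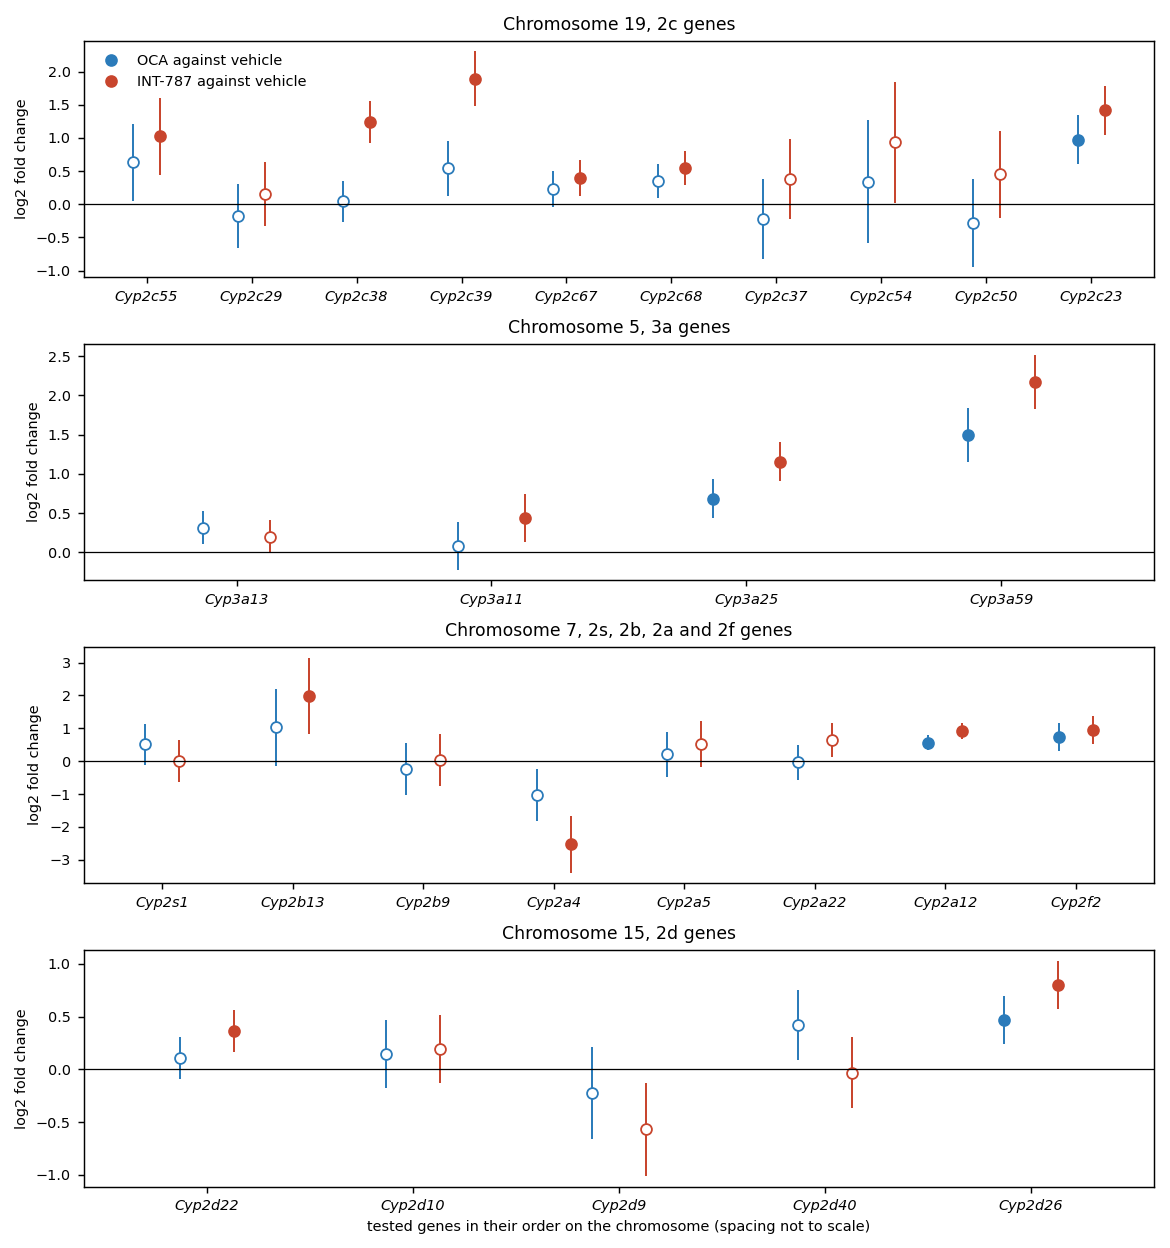
Log2 fold change against vehicle (y axis) with unadjusted 95% confidence intervals for the tested genes of 4 gene groups in their order on the chromosome (x axis, spacing not to scale), for OCA and INT-787, filled where the edgeR adjusted p was at most 0.05. Clusters hold both called and uncalled genes with INT-787, with Cyp2c38, Cyp2c39, Cyp2c67 and Cyp2c68 called in a row (1.24, 1.89, 0.40 and 0.55) between Cyp2c29 at 0.15 and Cyp2c37 at 0.38, and Cyp2a4 at -2.53 beside Cyp2a5 at 0.52.

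Subfamily 2a showed changes in both directions. Cyp2a12, a steroid hydroxylase that also rehydroxylates secondary bile acids, was at 434, 542 and 852 CPM in vehicle, 642, 835 and 1089 with OCA and 922, 1025 and 1241 with INT-787. The INT-787 mice were all above the vehicle mice, while 3 of 9 OCA mice were. It rose by 0.92 ± 0.12 (SE, edgeR adjusted p = 4.61e-07) with INT-787 and by 0.57 ± 0.12 (SE, edgeR adjusted p = 0.00133) with OCA. The difference between INT-787 and OCA was 0.35 ± 0.12 (SE, edgeR adjusted p = 0.0757), with a 95% interval of 0.11 to 0.59. It was called by DESeq2 (adjusted p = 0.0413) and with sets of sample numbers as a factor in edgeR (0.0314). It was also called by edgeR without OCA replicate 3 (0.0298), OCA replicate 9 (0.0468) or vehicle replicate 10 (0.0345).

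Cyp2a4, a steroid hydroxylase known to be higher in female mouse liver, had the largest fall. Its level was 8.62, 30.9 and 58.3 CPM in vehicle, 5.74, 11.4 and 32.1 with OCA and 0.578, 4.26 and 9.54 with INT-787. Of the 9 INT-787 mice, 7 were below every vehicle mouse, and the ranges overlapped. The change was -2.53 ± 0.42 (SE, edgeR adjusted p = 4.55e-05) with INT-787, which is 0.173 of the vehicle level. With OCA it was -1.03 ± 0.39 (SE, edgeR adjusted p = 0.124), and INT-787 against OCA it was -1.50 ± 0.42 (SE, edgeR adjusted p = 0.0301). That difference between the drugs lost its call in 6 of the fits that leave out 1 mouse, with adjusted p up to 0.0735.

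Cyp2a5, the coumarin and nicotine hydroxylase, is nearly the same gene in sequence and was not called. It was at 137, 263 and 650.2 CPM in vehicle, 143, 409 and 553 with OCA and 131, 499 and 978 with INT-787, with a change of 0.52 ± 0.34 (SE, edgeR adjusted p = 0.315) for INT-787 and a 95% interval of -0.18 to 1.21. The coding sequences of Cyp2a4 and Cyp2a5 differed at 23 of 1482 bases (98.4% identity). In Cyp2a4 77.9% of 75-base stretches were unique and 20.97% were shared with Cyp2a5. How the deposited counts assigned reads common to both is not given in the sources used here, so the Cyp2a4 values are uncertain to that extent. A stretch of exon 4 (coding bases 536 to 625) where the genes differ at 4 bases, in capitals, shows how few bases separate them, in GRCm38 on the plus strand at chr7:26308970-26309059 and chr7:26837133-26837222.
Cyp2a4: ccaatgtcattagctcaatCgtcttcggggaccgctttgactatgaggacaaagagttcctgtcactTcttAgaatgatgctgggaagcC
Cyp2a5: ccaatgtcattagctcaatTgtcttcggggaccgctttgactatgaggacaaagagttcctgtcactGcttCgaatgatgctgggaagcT
Cyp2a22 was not called, at 0.64 ± 0.25 (SE, edgeR adjusted p = 0.0717) with INT-787 and -0.04 ± 0.26 (SE, edgeR adjusted p = 0.976) with OCA. Of its 75-base stretches 86.6% were unique and 13.4% were shared with the more abundant Cyp2a12, so its values are uncertain to that extent. Without the 4 mice that stood apart Cyp2a22 was called higher with INT-787 against vehicle, at 0.72 with an edgeR adjusted p of 0.00362, and against OCA, at 0.78 with 0.0121. Counting that fit, 3 of 10 settings called Cyp2a22 against vehicle, among them only the 2 groups compared (0.64, edgeR adjusted p = 0.0136). So did 4 of the 28 fits that leave out 1 mouse, those without vehicle replicate 5, OCA replicate 3, OCA replicate 8 or INT-787 replicate 8.

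**Figure D4:**
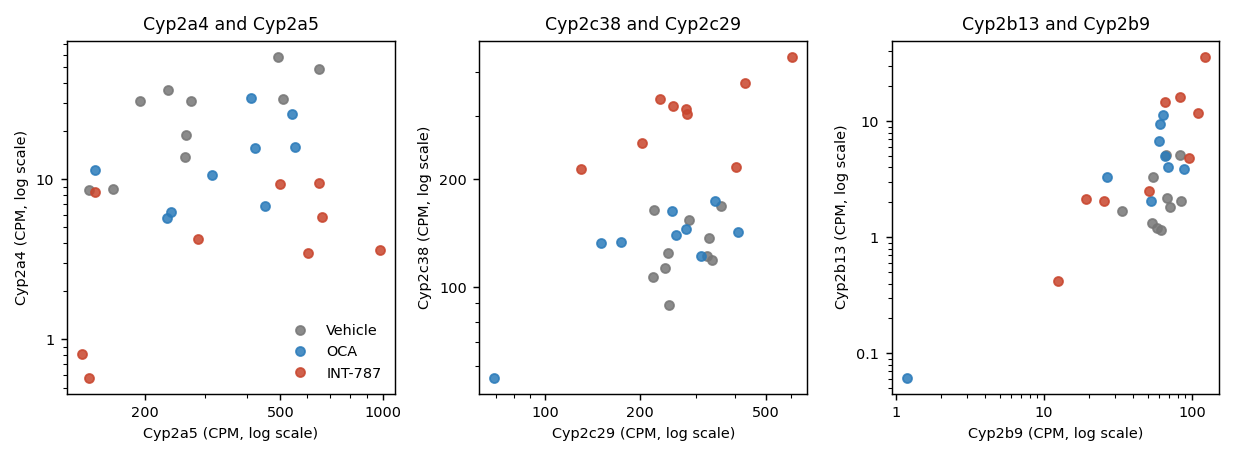
CPM of a P450 gene (y axis, log scale) against that of a near-identical or abundant relative (x axis, log scale), 1 point per mouse, coloured by group. INT-787 mice lie low for Cyp2a4 (median 4.26 CPM against 30.9 in vehicle) over the whole range of Cyp2a5, high for Cyp2c38 (median 315 against 123.3) at like Cyp2c29 levels, and spread widely for Cyp2b13 (0.419 to 35.9).

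In subfamily 2b, the classical phenobarbital-induced group, levels were low. Cyp2b10, the textbook CAR target, averaged 0.698 CPM in vehicle, 0.717 with OCA and 0.722 with INT-787, under the level set for the comparison. It passed the low-count filter of the test and was not called, at -0.06 ± 0.41 (SE, edgeR adjusted p = 0.949) with INT-787 and -0.00 ± 0.45 (SE, edgeR adjusted p = 0.999) with OCA. Cyp2b9 was the most abundant of the subfamily at 33.6, 64.05 and 83.9 CPM in vehicle, 1.18, 60.3 and 88.7 with OCA and 12.5, 66.1 and 121 with INT-787. Its change was 0.04 ± 0.39 (SE, edgeR adjusted p = 0.964) with INT-787 and -0.22 ± 0.39 (SE, edgeR adjusted p = 0.841) with OCA, with wide 95% intervals of -0.75 to 0.83 and -1.02 to 0.57.

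Cyp2b13, like Cyp2b9 known to be higher in female liver, was at 1.16, 1.94 and 5.16 CPM in vehicle, 0.0620, 4.06 and 11.2 with OCA and 0.419, 4.84 and 35.9 with INT-787. The groups overlapped, and 4 INT-787 mice were above every vehicle mouse while 1 was below all of them. The change was 1.99 ± 0.57 (SE, edgeR adjusted p = 0.0122) with INT-787. Without INT-787 replicate 3, the highest mouse, it was 1.44 with an adjusted p of 0.0602. The call was also lost with limma-voom, at 1.21 with an adjusted p of 0.291. With sets of sample numbers as a factor in edgeR it was lost too, at 1.43 with 0.127. With OCA the change was 1.04 ± 0.58 (SE, edgeR adjusted p = 0.351). In OCA replicate 8 the level was 0.0620 CPM for Cyp2b13 and 1.18 for Cyp2b9, the lowest of all 28 mice for both. Of 75-base stretches of Cyp2b13, 83.6% were unique and 11.2% were shared with Gm45225.

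In subfamily 2d, 2 of 5 genes rose with INT-787 and 1 with OCA. Cyp2d26, after Cyp3a11 the most highly expressed gene of the 33, was at 745, 984 and 1464 CPM in vehicle, 1158, 1403 and 1857 with OCA and 1504, 1778 and 2238 with INT-787. The INT-787 and vehicle ranges did not overlap. It rose by 0.80 ± 0.11 (SE, edgeR adjusted p = 3.76e-06) with INT-787 and by 0.47 ± 0.11 (SE, edgeR adjusted p = 0.00771) with OCA, and the 95% interval of INT-787 against OCA was 0.09 to 0.57 (adjusted p = 0.0928, and 0.0394 without OCA replicate 3). Cyp2d22, often named as the mouse counterpart of the human debrisoquine hydroxylase, was at 199, 245 and 321 CPM in vehicle, 222, 274 and 348 with OCA and 276, 304 and 391 with INT-787. It rose by 0.36 ± 0.10 (SE, edgeR adjusted p = 0.00804) with INT-787 and was not called with OCA, at 0.11 ± 0.10 (SE, edgeR adjusted p = 0.643).

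The male-biased testosterone hydroxylase gene Cyp2d9 was not called, at -0.57 ± 0.22 (SE, edgeR adjusted p = 0.0617) with INT-787 and -0.22 ± 0.22 (SE, edgeR adjusted p = 0.656) with OCA. None of the 9 INT-787 mice was above the vehicle median of 291 CPM. Cyp2d9 was called lower with INT-787 by DESeq2 (adjusted p = 0.0415), with upper-quartile scaling (0.0350), with only the 2 groups in the edgeR fit (0.0479) and in 6 of the 28 fits that leave out 1 mouse. Cyp2d10 and Cyp2d40 were not called, with log2 changes of 0.19 and -0.03 for INT-787 and 0.15 and 0.42 for OCA. Only 73.3% of 75-base stretches of Cyp2d10 were unique.

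Cyp2f2, which activates naphthalene in the lung and is a periportal gene in the liver, was called with both drugs. Its level was 335, 438 and 673 CPM in vehicle, 255, 876 and 1281 with OCA and 562, 841 and 1214 with INT-787. Of the OCA mice, 6 were above and 2 below the whole vehicle range, and those 2 were OCA replicates 6 and 8. The change was 0.94 ± 0.21 (SE, edgeR adjusted p = 0.00143) with INT-787 and 0.74 ± 0.21 (SE, edgeR adjusted p = 0.0264) with OCA, and the 95% interval of INT-787 against OCA was -0.23 to 0.64. The OCA call was lost when OCA replicate 2, 3, 4 or 9 was left out, with adjusted p up to 0.0758. It was also lost with limma-voom (adjusted p = 0.0918) and with only the 2 groups in the edgeR fit (0.0611). With sets of sample numbers as a factor in edgeR it was lost too (0.58, adjusted p = 0.176). An antisense transcript annotated over 274 bases of its exons has no row in the counts table.

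Of 8 other periportal genes on a list, 6 were higher with INT-787 and 5 with OCA, and 0 were lower. The list's median log2 change was 0.97 with INT-787 and 0.79 with OCA, beside -0.0010 and 0.018 for all genes. The median of 10 pericentral genes outside the P450 families described was 0.037 with INT-787 and -0.25 with OCA, and how many of them were called is not reported here. Hal, which encodes histidine ammonia-lyase, rose by 2.27 ± 0.11 (SE, edgeR adjusted p = 4.08e-16) and 2.00 ± 0.11 (SE, edgeR adjusted p = 1.48e-14) with INT-787 and OCA. Gls2, the liver glutaminase, rose by 1.29 ± 0.15 (SE, edgeR adjusted p = 1.10e-07) and 0.97 ± 0.15 (SE, edgeR adjusted p = 3.98e-05), and the serine dehydratase gene Sds by 1.03 ± 0.26 (SE, edgeR adjusted p = 0.00523) and 0.94 ± 0.26 (SE, edgeR adjusted p = 0.0244).

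The 2j genes, epoxygenases of arachidonic acid, were not called against vehicle. Cyp2j5, the most abundant, was at 369, 424 and 485 CPM in vehicle, 296, 431 and 595 with OCA and 396, 501 and 606 with INT-787. It changed by 0.23 ± 0.10 (SE, edgeR adjusted p = 0.107) with INT-787. Cyp2j6 was higher with INT-787 than with OCA by 0.29 ± 0.08 (SE, edgeR adjusted p = 0.0389). Its levels were 87.8, 103 and 115 CPM in vehicle, 74.1, 93.5 and 126 with OCA and 103, 114 and 131 with INT-787, so that all 9 INT-787 mice were above the OCA median while the ranges overlapped. This call was lost in 10 of the 28 fits that leave out 1 mouse, with adjusted p up to 0.0867, and also with upper-quartile scaling and with only the 2 groups in the fit. Cyp2j9 (adjusted p = 0.414 with INT-787), the vitamin D hydroxylase gene Cyp2r1 (0.324), the fatty acid hydroxylase gene Cyp2u1 (0.248) and Cyp2s1 (0.993) were not called. Of the 6 tested genes of a list of family 2 members better known for vitamin D, arachidonate and lipid substrates, 0 were called with either drug against vehicle.

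Family 1 was barely expressed once Cyp1a2 was left out. Cyp1a1, the standard AhR target, averaged 0.516 CPM in vehicle, 0.910 with OCA and 0.615 with INT-787, under the level filter, and was not called at 0.07 ± 0.31 (SE, edgeR adjusted p = 0.915) with INT-787 and 0.64 ± 0.30 (SE, edgeR adjusted p = 0.238) with OCA. Cyp1b1, a hydroxylase of polycyclic hydrocarbons and oestradiol, fell with INT-787. Its level was 5.20, 6.17 and 11.6 CPM in vehicle, 3.85, 5.41 and 10.9 with OCA and 2.85, 4.47 and 5.13 with INT-787, with every INT-787 mouse below every vehicle mouse. The change was -0.82 ± 0.20 (SE, edgeR adjusted p = 0.00365) with INT-787 and -0.27 ± 0.20 (SE, edgeR adjusted p = 0.513) with OCA. Of 7 stellate cell and fibroblast markers 4 were also lower with INT-787, and the part of cell makeup in the fall of Cyp1b1 was not tested. Of 4 AhR target genes tested outside the P450s, 1 was higher and 1 lower with INT-787, with a median of 0.18. Nqo1, a quinone reductase, changed by 0.55 ± 0.15 (SE, edgeR adjusted p = 0.00746), and the lysophospholipid acyltransferase gene Lpcat2 by -0.49 ± 0.13 (SE, edgeR adjusted p = 0.00732). With OCA 0 of the 4 were called, with a median of 0.036.

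Some markers of cells other than hepatocytes were lower in the same INT-787 mice. Of 7 stellate cell and fibroblast markers 4 were lower with INT-787 and 0 were called with OCA, and their summed level ran from 1149 to 2101 CPM in vehicle, 1076 to 2648 with OCA and 439 to 1062 with INT-787. Of 7 macrophage markers 3 were lower with INT-787 and 0 were called with OCA, with sums of 571 to 812, 432 to 977 and 316 to 771 CPM in the same order. Among 6 sinusoidal endothelial markers 1 was lower (sums of 146 to 293, 132 to 206 and 92.2 to 220.1) and among 5 cholangiocyte markers 1 was lower (482 to 798, 442 to 1618 and 336 to 537). Of 5 lymphocyte and neutrophil markers tested 0 were called, with sums of 3.65 to 17.3, 3.70 to 10.5 and 4.47 to 11.5. No marker on these lists was at 0 in every mouse. Of 6 hepatocyte markers 1 was higher with INT-787 and 2 with OCA, with sums of 74543 to 143700.0, 120286 to 211265 and 107861 to 178033. Albumin changed by 0.45 ± 0.14 (SE, edgeR adjusted p = 0.0247) with INT-787 and 0.62 ± 0.14 (SE, edgeR adjusted p = 0.00459) with OCA. The part of cell makeup in the P450 changes was not tested.

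OCA replicate 8, the lowest OCA mouse for 21 of the 33 genes, had the highest summed stellate cell and fibroblast markers of its group at 2648 CPM and the highest cholangiocyte markers at 1618, and its summed P450 level of 8845 CPM was the lowest. OCA replicate 3 had the lowest stellate and fibroblast sum, 1076, the lowest macrophage sum, 432, and the highest P450 sum, 18554. In the heat map by mouse these animals stand out from the other 7 OCA mice.

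**Figure D5:**
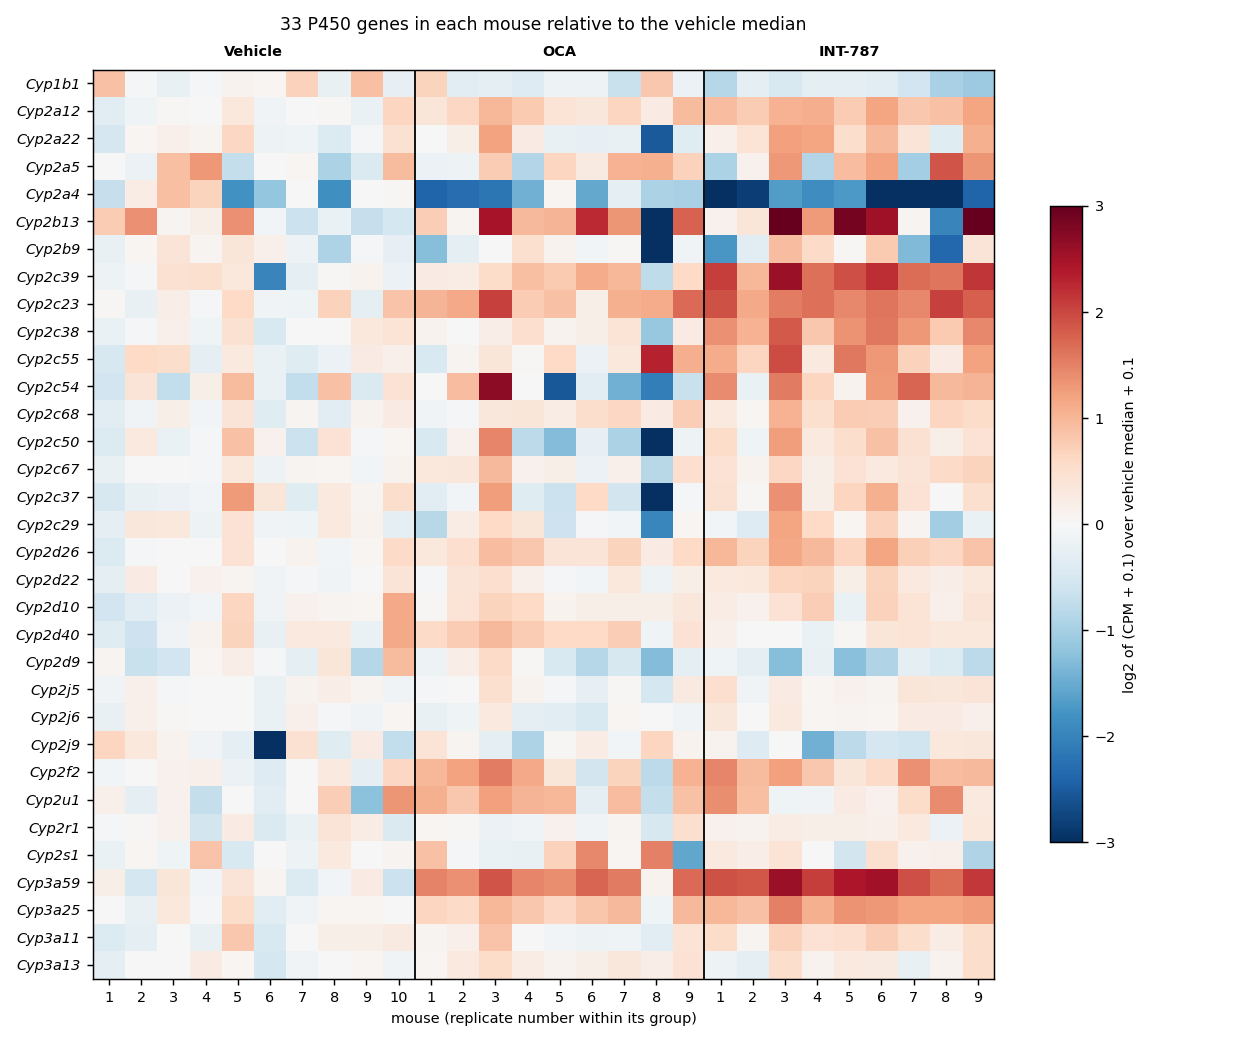
Level of the 33 P450 genes (rows, in subfamily order) in each of the 28 mice (columns) as log2 of CPM plus 0.1 over the vehicle median plus 0.1, with colours capped at 3 in both directions. The red band of Cyp3a59 and Cyp3a25 covers the INT-787 mice and, more weakly, the OCA mice other than replicate 8, the column with dark blue cells at Cyp2b9 (1.18 CPM) and Cyp2c50 (8.31 CPM).

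Genes that control or serve P450s changed in part. Of 17 receptors and their partners tested, 5 were higher and 1 lower with INT-787 (median 0.21) and 2 higher and 0 lower with OCA (median 0.15). Nr0b2, the FXR target that encodes the repressor SHP, rose by 1.62 ± 0.19 (SE, edgeR adjusted p = 2.03e-07) and 1.17 ± 0.19 (SE, edgeR adjusted p = 0.000104). Onecut1, a hepatocyte transcription factor, fell with INT-787, at -1.57 ± 0.42 (SE, edgeR adjusted p = 0.00708), and was at -0.46 ± 0.39 (SE, edgeR adjusted p = 0.601) with OCA. The genes Nr1i3 (CAR), Ahr and Rxra were not called against vehicle with either drug. Of 14 electron partners and haem synthesis genes, 1 was higher and 1 lower with INT-787, with a median of 0.070. With OCA 0 were higher and 1 lower, with a median of -0.030. Over all genes tested, 10.2% were higher and 9.48% lower with INT-787, and 4.15% and 2.45% with OCA. Counts this small do not set these 14 genes apart from all genes. Uros, uroporphyrinogen synthase of the haem pathway, rose with INT-787 by 0.52 ± 0.12 (SE, edgeR adjusted p = 0.00281) and was at 0.36 ± 0.12 (SE, edgeR adjusted p = 0.0834) with OCA. Hmox1, which degrades haem, fell with both drugs, at -0.43 ± 0.12 (SE, edgeR adjusted p = 0.00974) and -0.41 ± 0.12 (SE, edgeR adjusted p = 0.035).

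CAR and PXR target genes outside the P450s, among them conjugating enzymes and transporters, gave 8 higher and 1 lower of 16 with INT-787 (median 0.35) and 4 higher and 2 lower with OCA (median 0.10). Between INT-787 and OCA 6 were higher and 0 lower (median 0.30). The glutathione transferase gene Gsta2 changed by 2.18 ± 0.18 (SE, edgeR adjusted p = 6.28e-11) with INT-787, 1.06 ± 0.17 (SE, edgeR adjusted p = 8.98e-05) with OCA and 1.12 ± 0.17 (SE, edgeR adjusted p = 0.000134) between INT-787 and OCA. Gstm3, of the same class of enzymes, changed by 1.82 ± 0.19 (SE, edgeR adjusted p = 1.58e-08), 0.70 ± 0.19 (SE, edgeR adjusted p = 0.0184) and 1.12 ± 0.19 (SE, edgeR adjusted p = 0.000472). The drug efflux pump gene Abcb1a changed by 1.88 ± 0.17 (SE, edgeR adjusted p = 3.37e-10), 1.16 ± 0.16 (SE, edgeR adjusted p = 1.02e-05) and 0.71 ± 0.16 (SE, edgeR adjusted p = 0.0074). Slco1a4, an organic anion uptake transporter, changed by 1.15 ± 0.19 (SE, edgeR adjusted p = 3.25e-05) with INT-787, 0.29 ± 0.19 (SE, edgeR adjusted p = 0.457) with OCA and 0.87 ± 0.19 (SE, edgeR adjusted p = 0.00564) between them. Of the 9 CAR and PXR targets among the P450s with a mean of at least 1 CPM, which leaves out Cyp2b10, 3 were higher with INT-787 and 1 with OCA, with medians of 0.45 and 0.21.

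Of the 22 P450 genes with a mean CPM under 1, 5 (Cyp2j12, Cyp2j7, Cyp2w1, Cyp2t4 and Cyp2c66) had no count in any mouse, and 5 passed the low-count filter of the test (Cyp3a57, Cyp2b10, Cyp1a1, Cyp2d12 and Cyp2g1). None of those 5 was called by edgeR in any comparison, and Cyp1a1 and Cyp3a57 had an unadjusted p under 0.05 in the OCA comparison with vehicle. The level filter fell between Cyp2s1 at a mean of 1.12 CPM and Cyp3a57 at 0.730.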

How the data were processed

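Livers were snap-frozen, and poly-A libraries were made with a stranded kit and read for 75 cycles. Per the study's methods and labels, the authors aligned reads to GRCm38 (mm10) with STAR, and they deposited raw counts per Ensembl gene with no normalization. The counting program and its strand setting are not given in the sources used here. Of 21935 gene identifiers, 21858 matched the GENCODE M21 annotation, which supplied symbols, positions and transcript lengths.

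Counts were tested with edgeR 4.0.16 in R 4.3.3 (TMM scaling, filterByExpr, quasi-likelihood test, no covariate, all 28 mice in 1 fit), which kept 12580 genes. P-values were adjusted by Benjamini-Hochberg over these genes, and a gene was called at an adjusted p of at most 0.05. P450 genes needed a mean CPM of at least 1 over all mice. CPM used TMM-scaled library sizes. The fit was tested on simulated data. Total counts per mouse were 1009593 to 22421506, so 1 CPM corresponds to few counts in the shallowest library. Groups came from the labels, which number the mice within each group. Same-numbered mice were correlated (see the closing section), and since not every pair correlated above 0.1 no block was used in the main fit. That threshold cannot decide whether some of the mice share a factor. The 117 pairs of mice of 1 group differed by more than sampling noise (smallest chi-square per gene 2.97). That mice are separate animals comes from the study's methods.

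Values by group are given for P450 genes called in at least 1 comparison and for the most abundant gene of each subfamily. Cyp1a1, Cyp2b10, Cyp2f2 and Cyp3a11 are described regardless. Of 16 lists of other genes and 5 lists of P450s, counts and medians are given, with at most 4 called genes each, those with the largest change in any comparison, and albumin as the check of the tissue. The result of 1 of these lists and the counts of another are not reported here. Members and lists were chosen with earlier results of these data known. Alternatives were DESeq2 1.42.0, limma-voom (limma 3.58.1), other scalings and filters, only the 2 groups compared, sets of sample numbers, a block and leaving out each mouse. The sets were formed here from close sample numbers, and whether they were batches is not stated in the labels. A fit without 4 mice was chosen after seeing the data. Stretches of 75 bases unique to a gene were counted over all GENCODE M21 transcripts. Promoter windows are the 250 bases before each gene's start in RefSeq (GRCm38.p6), and coding windows are from GENCODE M21. Sequences were handled with biopython 1.88.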

Additional observations from a re-analysis of the deposited data

Results flagged for a closer look

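For each of the 33 P450 genes in each of the 3 groups, the mouse farthest from the rest was compared with Dixon's critical value. Of 99 groups tested, 13 had a mouse that stood apart, and chance alone flags about 1 in 20 groups. The genes share mice, so these are not separate events.

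In OCA replicate 8, which was low for most P450 genes, Cyp3a25 was 260 CPM (group median 502), Cyp3a59 was 29.8 (median 77.8) and Cyp2c38 was 55.8 (median 140), each the lowest of the OCA mice. In the same mouse Cyp2c55 was the highest, at 37.3 CPM against a median of 9.32. In OCA replicate 3 Cyp2c50 was 286 CPM (median 75.5), Cyp2a22 84.2 (median 31.3) and Cyp2c54 27.7 (median 3.40), each the highest of its group.

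Vehicle replicate 5, the library with counts on both strands of overlapping genes, was the highest vehicle mouse for Cyp3a11 at 8469 CPM (median 4845) and for Cyp2c37 at 58.8 (median 24.3). Vehicle replicate 6, the shallowest library, held 0.919 CPM of Cyp2c39 against a median of 3.93, which is a single count. Vehicle replicate 4 held 1.78 CPM of Cyp2s1 (median 0.933). INT-787 replicate 3 held 35.9 CPM of Cyp2b13 (median 4.84), and the call of that gene was lost without this mouse. INT-787 replicate 8 was the lowest for the vitamin D hydroxylase gene Cyp2r1 at 9.91 CPM (median 12.7).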

How the results depend on the processing

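Each of the 99 changes of single P450 genes was recomputed under 10 settings and with each of 28 mice left out. Of 28 called changes, 22 kept their call and direction in every setting, 6 lost it in at least 1, and of 71 not called, 21 were called in at least 1. None of the 99 changed sign while called. Lost calls were those of Cyp3a11, Cyp2c67 and Cyp2b13 with INT-787, of Cyp2f2 with OCA, and of Cyp2j6 and Cyp2a4 between INT-787 and OCA. With a threshold of 0.01 the genes called between INT-787 and OCA numbered 2 rather than 6, and without the 4 mice that stood apart 13. With 1 mouse left out, the counts ran from 13 to 19 for INT-787, from 5 to 7 for OCA and from 4 to 13 between INT-787 and OCA, the 13 without OCA replicate 3. The cause was not tested. DESeq2 called 17, 6 and 7, limma-voom 15, 5 and 6, and sets of sample numbers as a factor gave 14, 5 and 7.

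With the replicate number as a block the counts were 17, 9 and 8. Cyp2a22 and Cyp2u1 were then called with INT-787 and Cyp2b13 was not (1.09, edgeR adjusted p = 0.139), Cyp2c68, Cyp2d40 and Cyp2u1 were called with OCA, and Cyp2a12 and Cyp2a22 between INT-787 and OCA. Same-numbered mice correlated from -0.26 to 0.50 (27 pairs, median 0.10, against 0.0029 for other pairs), and 9 of 27 correlated best with their own number. In the sets of sample numbers the correlations ran from -0.21 to 0.50 (25 pairs, median 0.14, against -0.010). Of 26 mice, 10 correlated best within their own set. No label ties the numbers together and not every pair was above 0.1, so the main fit used no block. This threshold cannot decide whether some of the mice share a factor, which was not tested. At the shallowest library's depth, changes of genes near 1 CPM were measured with few counts.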

Other observations

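Genes with a known sex bias in mouse liver moved in both directions in these male mice. Of 9 male-biased genes tested outside the P450s described, 1 was higher and 5 lower with INT-787 (median log2 change -1.17) and 0 higher and 3 lower with OCA (median -0.53). Slco1a1, an organic anion uptake transporter gene, changed by -2.59 ± 0.70 (SE, edgeR adjusted p = 0.00842) with INT-787 and -1.50 ± 0.64 (SE, edgeR adjusted p = 0.181) with OCA. The gene called higher was Cyp4a12b, a fatty acid hydroxylase gene, at 2.00 ± 0.55 (SE, edgeR adjusted p = 0.00903) with INT-787, 0.02 ± 0.55 (SE, edgeR adjusted p = 0.997) with OCA and 1.99 ± 0.56 (SE, edgeR adjusted p = 0.0305) between INT-787 and OCA. Its relative Cyp4a12a was at -1.17 ± 0.60 (SE, edgeR adjusted p = 0.175) with INT-787 and -2.10 ± 0.62 (SE, edgeR adjusted p = 0.0349) with OCA. Reads may be common to these 2 genes, which was not measured here, so values of both are uncertain. The major urinary protein gene Mup20 changed by -1.56 ± 0.26 (SE, edgeR adjusted p = 5.11e-05) with INT-787 and -0.53 ± 0.26 (SE, edgeR adjusted p = 0.262) with OCA. Of the 3 female-biased P450 genes tested, Cyp2b13 was higher and Cyp2a4 lower with INT-787, and 0 were called with OCA. The 1 male-biased P450 gene, Cyp2d9, was not called with either drug by edgeR, and DESeq2 called it lower with INT-787 (adjusted p = 0.0415). Among 9 growth hormone signalling genes 2 were higher and 1 lower with INT-787 (median -0.050), and 0 were called with OCA (median -0.051) at edgeR's adjusted threshold. Bcl6, a transcriptional repressor, changed by 1.11 ± 0.40 (SE, edgeR adjusted p = 0.0460) and Socs2, a growth hormone target, changed by -1.01 ± 0.30 (SE, edgeR adjusted p = 0.0145) with INT-787.

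The acute-phase genes were lower with INT-787. All 9 on the list were lower with INT-787 (median -0.92), with 1 higher and 0 lower with OCA (median 0.14), and all 9 were called lower between INT-787 and OCA (median -0.85). Saa2, a serum amyloid gene, changed by -1.68 ± 0.22 (SE, edgeR adjusted p = 7.27e-07) with INT-787 and 0.14 ± 0.21 (SE, edgeR adjusted p = 0.801) with OCA. Saa1, of the same family, changed by -1.34 ± 0.20 (SE, edgeR adjusted p = 8.44e-06) and 0.44 ± 0.19 (SE, edgeR adjusted p = 0.207). Orm2, an orosomucoid gene, changed by -1.58 ± 0.17 (SE, edgeR adjusted p = 2.93e-08) and -0.24 ± 0.17 (SE, edgeR adjusted p = 0.483). The summed level of the list ran from 14497 to 31211 CPM in vehicle, 19052 to 24052 with OCA and 11886 to 17996 with INT-787, and its part in the P450 changes was not tested. Of the 2 AhR targets tested among the P450s, 1 was lower with INT-787 and 0 were called with OCA.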
